A study of Mus musculus with 5 samples.

Results

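Amacrine and horizontal cells are the inhibitory interneurons of the retina, and 10 genes that mark them were followed in whole retinas after optic nerve crush (ONC). The genes were found by their symbols among the 25655 symbols of the count table, 6 for amacrine cells (Gad1, Gad2, Slc6a9, Slc32a1, Chat and Tfap2b) and 4 for horizontal cells (Lhx1, Onecut1, Onecut2 and Calb1). All 10 had enough reads to be tested, among 14992 genes tested in all. The retinas came from wildtype C57BL/6 mice of 8 to 10 weeks whose left optic nerve was crushed, and were taken 7 days after the crush. In 3 mice the vehicle DMSO was injected (replicates 1, 2 and 3), and in 2 mice Sorbinil, an inhibitor of aldose reductase, at 10 mg/kg (replicates 1 and 3). Injections into the abdomen began the day before the crush and were repeated daily, and the study used both sexes. Every retina was crushed, so the effect of the crush itself was not measured here. The comparison asks whether the RNA of these interneurons differed between Sorbinil and DMSO in injured retinas.

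Amacrine cells sit between the bipolar and the ganglion cells and shape the signals that pass between them, and most release GABA or glycine. Horizontal cells sit at the photoreceptor terminals and feed signals back onto rods and cones. Neither sends an axon through the optic nerve, so the crush does not cut them directly. The markers follow these roles. Gad1 and Gad2 encode the enzymes that make GABA from glutamate, Slc32a1 the transporter that loads GABA and glycine into synaptic vesicles, and Slc6a9 the glycine transporter of glycinergic amacrine cells. Chat encodes the enzyme that makes acetylcholine in starburst amacrine cells, and Tfap2b a transcription factor of the AP-2 family found in amacrine cells. Lhx1, Onecut1 and Onecut2 encode transcription factors of horizontal cells, and Calb1 the calcium-binding protein calbindin. Onecut1, Onecut2 and Calb1 are also used in some ganglion or amacrine cells.

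RNA libraries of the 5 retinas held 56096541 to 90288552 counts on genes, and the 10 genes together took between 0.0288% and 0.110% of them. Sorbinil replicate 1 stood apart from the other 4 retinas. It scored 75.8 on the leading principal component (65.4% of the variance), while the others lay between -28.9 and -7.64. The fits of the 10 genes and of the gene lists are therefore also given without it. Values are CPM, read counts brought to a common library size with the TMM method, unless another scale is named.

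Across all 10 genes the 2 Sorbinil retinas differed from each other more than the groups did. Sorbinil replicate 1 lay below every DMSO retina for 10 of the 10 genes, where this held for 41.7% of all genes tested. Sorbinil replicate 3 lay below every DMSO retina for 0 of the 10, compared to 29.1% of all genes tested, and above every DMSO retina for 5 of the 10, compared to 27.3%. The 5 genes were Gad2, Slc6a9, Tfap2b, Onecut1 and Onecut2. For none of the 10 were both Sorbinil retinas below every DMSO retina, a pattern seen in 10.5% of all genes tested, or both above, which was seen in 12.8%. For each of the 10 genes the difference between the group means was smaller than the SD of the Sorbinil retinas.

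None of the 10 genes was called by the study's rule, a 2-fold change whose unadjusted p-value does not exceed 0.1, here from edgeR's quasi-likelihood test. Among all genes tested, 1.35% were called lower and 0.36% higher in the Sorbinil retinas, 203 and 54 genes, and offsets for exon length and GC content made these 161 and 149. The fitted log2 fold change was below 0 for 8 of the 10 genes, compared to 51% of all genes tested, and ran from -0.63 (Chat) to 0.29 (Onecut2). Before adjustment 0 of the 10 genes had p under 0.05, compared to 5.01% of all genes tested, and after adjustment again none, whether by edgeR's quasi-likelihood test, its likelihood ratio test or the DESeq2 Wald test. The median log2 fold change was -0.45 over the 6 amacrine genes and -0.12 over the 4 horizontal genes, beside -0.008 over all genes tested. Without Sorbinil replicate 1 both signs turned, to 0.15 for the amacrine and 0.32 for the horizontal genes. The horizontal median also turned with the offsets (0.05, where all genes were at 0.164) and without DMSO replicate 1 (0.02). A test that misses the threshold with 2 Sorbinil retinas does not show that the levels were alike, since the standard errors of 0.27 to 0.52 on the log2 scale leave room for changes of either sign.

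**Figure D1:**
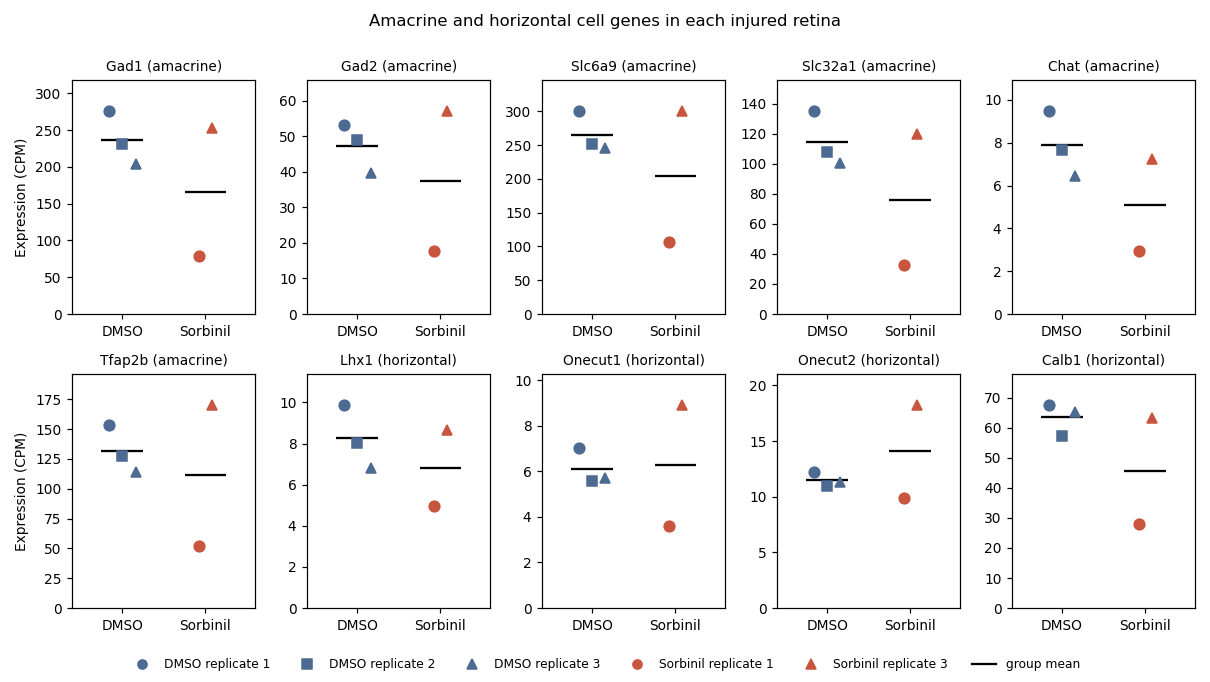
Expression in CPM (linear axis from 0) of the 6 amacrine and 4 horizontal cell genes in each retina, with points for single retinas and a line for the group mean. In all 10 panels Sorbinil replicate 1 is the lowest retina, while Sorbinil replicate 3 lies within or above the DMSO retinas.

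Gad1 and Slc6a9 had the most reads of the amacrine genes. Gad1 (ENSMUSG00000070880, GRCm39 chromosome 2 from 70383416 to 70432372, plus strand) measured 277, 231 and 204 CPM in DMSO replicates 1, 2 and 3, and 78.4 and 253 CPM in Sorbinil replicates 1 and 3. Sorbinil replicate 1 was the lowest of the 5 retinas, and Sorbinil replicate 3 lay inside the DMSO range. The mean was 237 ± 37.0 CPM for the DMSO group (SD, n = 3) and 166 ± 123 CPM for the Sorbinil group (SD, n = 2). This is a fitted difference of -0.52 ± 0.48 log2 units (SE), adjusted p = 0.76 in the quasi-likelihood fit of edgeR. Gad2 (ENSMUSG00000026787, chromosome 2 from 22511862 to 22583886, plus strand), the other GABA-making enzyme, measured 53.3, 49.0 and 39.6 CPM with DMSO, and 17.6 and 57.3 CPM with Sorbinil. Here the 2 Sorbinil retinas lay on opposite sides of all DMSO retinas. The fit gave -0.34 ± 0.48 log2 units (SE) for Gad2, adjusted p = 0.815.

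Slc32a1 (ENSMUSG00000037771, chromosome 2 from 158452605 to 158464883, plus strand), which fills the vesicles, measured 135, 108 and 100.4 CPM in the DMSO retinas, and 32.5 and 119.6 CPM in Sorbinil replicates 1 and 3. Its level in Sorbinil replicate 1 was 3.50-fold below the DMSO mean, the largest drop of the 10 genes in that retina, while Sorbinil replicate 3 fell inside the DMSO range. Over all retinas the fitted difference was -0.59 ± 0.52 log2 units (SE), adjusted p = 0.758. Slc6a9 (ENSMUSG00000028542, chromosome 4 from 117691703 to 117732395, plus strand), the glycine transporter, measured 300.2, 252 and 245 CPM with DMSO, and 107 and 301 CPM with Sorbinil. Sorbinil replicate 3 exceeded DMSO replicate 1, the highest DMSO retina, by less than the DMSO retinas differed among themselves. Slc6a9 had a fitted difference of -0.38 ± 0.42 log2 units (SE), adjusted p = 0.781. Exons of Ccdc24 and B4galt2 on the opposite strand overlap 1429 and 551 bases of Slc6a9 exons, and no source says whether strand was used in counting, so a part of the Slc6a9 counts is uncertain. Long noncoding RNA genes on the opposite strand overlap exons of Gad1 (99 bases), Slc6a9 (511), Slc32a1 (302 and 697), Chat (164), Tfap2b (433), Lhx1 (1661) and Onecut1 (464) in the same way.

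Chat and Tfap2b mark a small and a broad set of amacrine cells. Chat (ENSMUSG00000021919, chromosome 14 from 32129369 to 32187946, minus strand) measured 9.50, 7.67 and 6.46 CPM with DMSO, and 2.95 and 7.23 CPM with Sorbinil. Sorbinil replicate 1 was below and Sorbinil replicate 3 among the DMSO retinas, the latter at -0.10 log2 units from the DMSO mean, the lowest such value of the 10 genes. Its counts ran from 155 in Sorbinil replicate 1 to 919 in DMSO replicate 1, the fewest of the amacrine genes. Chat had the largest fitted difference below 0 of the 10 genes, -0.63 ± 0.41 log2 units (SE), adjusted p = 0.758. Tfap2b (ENSMUSG00000025927, chromosome 1 from 19279138 to 19309069, plus strand) measured 153, 128 and 114 CPM in the DMSO retinas, and 52.1 and 170.5 CPM in the Sorbinil retinas. As with Gad2, one Sorbinil retina lay below and the other above all DMSO retinas. For Tfap2b the fit gave -0.24 ± 0.48 log2 units (SE), adjusted p = 0.865.

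Of the horizontal genes, Calb1 had the most reads, and in Sorbinil replicate 1 each of the 4 lay closer to its DMSO mean than any amacrine gene did. Calb1 (ENSMUSG00000028222, chromosome 4 from 15881155 to 15908085, plus strand) measured 67.7, 57.2 and 65.4 CPM with DMSO, and 28.0 and 63.4 CPM with Sorbinil. Sorbinil replicate 3 matched the DMSO mean of 63.4 CPM, and Sorbinil replicate 1 was 2.26-fold below it. Calb1 differed by -0.47 ± 0.34 log2 units (SE) in the fit, adjusted p = 0.758. Lhx1 (ENSMUSG00000018698, chromosome 11 from 84408803 to 84416368, minus strand), a LIM homeodomain factor, measured 9.90, 8.03 and 6.82 CPM with DMSO, and 4.98 and 8.68 CPM with Sorbinil. Sorbinil replicate 1 was 1.63-fold below the DMSO mean, and the other Sorbinil retina lay among the DMSO retinas. Lhx1 differed by -0.27 ± 0.30 log2 units (SE), adjusted p = 0.78.

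Both Onecut genes ran opposite to the other members when the groups were averaged. Onecut1 (ENSMUSG00000043013, chromosome 9 from 74769118 to 74800594, plus strand) measured 7.01, 5.58 and 5.71 CPM with DMSO, and 3.60 and 8.93 CPM with Sorbinil. Onecut2 (ENSMUSG00000045991) measured 12.3, 10.98 and 11.3 CPM with DMSO, and 9.93 and 18.3 CPM with Sorbinil. For both genes, Sorbinil replicate 1 was the lowest and Sorbinil replicate 3 the highest retina. Against the DMSO mean, Onecut1 was 1.47-fold and Onecut2 1.59-fold higher in Sorbinil replicate 3, the largest rises of the 10 genes, and 1.68-fold and 1.16-fold lower in Sorbinil replicate 1. In the fit Onecut1 stood at 0.04 ± 0.39 and Onecut2 at 0.29 ± 0.27 log2 units (SE), with adjusted p = 0.975 and 0.76. The sign for Onecut1 was not stable, and it was -0.0005 when library size alone was used for scaling. A long noncoding RNA gene on the same strand covers 2171 bases of Onecut1 exons in the annotation, so its counts may include reads of that gene.

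**Figure D2:**
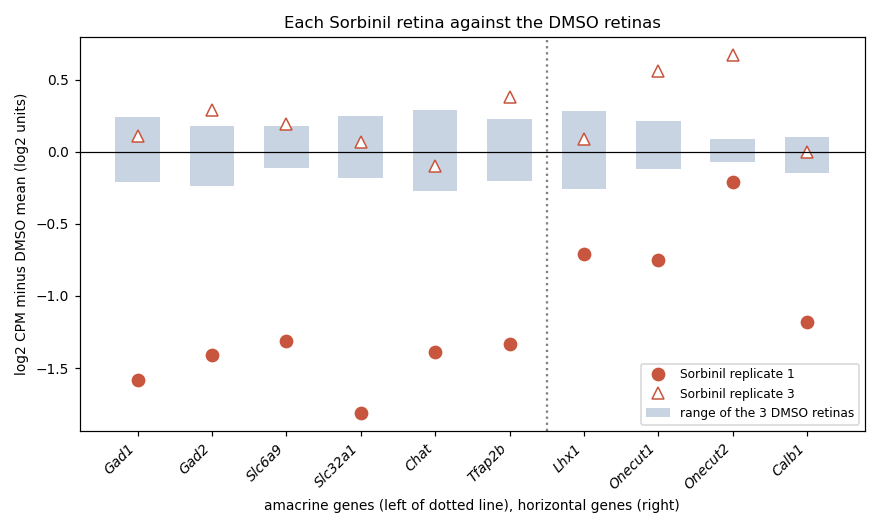
log2 CPM of each gene in the 2 Sorbinil retinas minus the DMSO mean (log2 units), with bars for the range of the 3 DMSO retinas. Sorbinil replicate 1 runs from -1.81 (Slc32a1) to -0.21 (Onecut2) and lies below every bar, while Sorbinil replicate 3 runs from -0.10 (Chat) to 0.67 (Onecut2).

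The exact permutation test of log2(CPM + 0.01), two-sided over all 10 groupings of the retinas, cannot give a p-value below 0.1 in this design. For the 10 genes it gave p-values from 0.2 (Chat and Calb1) to 1 (Onecut1). Leaving out each DMSO retina in turn called none of the 10 genes. Without DMSO replicate 1 the fitted difference of Tfap2b went from -0.24 to -0.12 and that of Lhx1 from -0.27 to -0.12 log2 units, and Onecut1 turned below 0 without DMSO replicate 2 or 3.

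Leaving out a Sorbinil retina changed the result. Without Sorbinil replicate 1, the remaining Sorbinil retina was compared with the 3 DMSO retinas and was assumed to vary as they do. The log2 fold change was then above 0 for 9 of the 10 genes, with Chat at -0.12 as the exception. None of the 10 genes was called, compared to 1.26% of all genes tested. Onecut2 stood at 0.68 ± 0.13 and Onecut1 at 0.56 ± 0.19 log2 units (SE), with unadjusted p-values of 0.0018 and 0.0236 in edgeR. Among all genes tested, 4.73% were higher at an unadjusted p-value under 0.05. Their adjusted p-values were 0.579 and 0.611, so neither rise passed the adjustment.

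Without Sorbinil replicate 3 the opposite was seen. Then 7 of the 10 genes were called lower, namely the 6 amacrine genes and Calb1, in a fit that called 17.5% of all genes tested lower. The log2 fold changes of the 6 amacrine genes lay between -1.82 (Slc32a1) and -1.32 (Slc6a9), and that of Calb1 was -1.18. Lhx1 at -0.73 and Onecut1 at -0.76 fell short of 2-fold, and Onecut2 was at -0.21 with an unadjusted p-value of 0.179 by edgeR's test. In this fit 8 of the 10 genes had an adjusted p-value under 0.05, compared to 37.4% of all genes tested. The fit compares 1 retina with 3 and describes that retina, not the treatment.

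**Figure D3:**
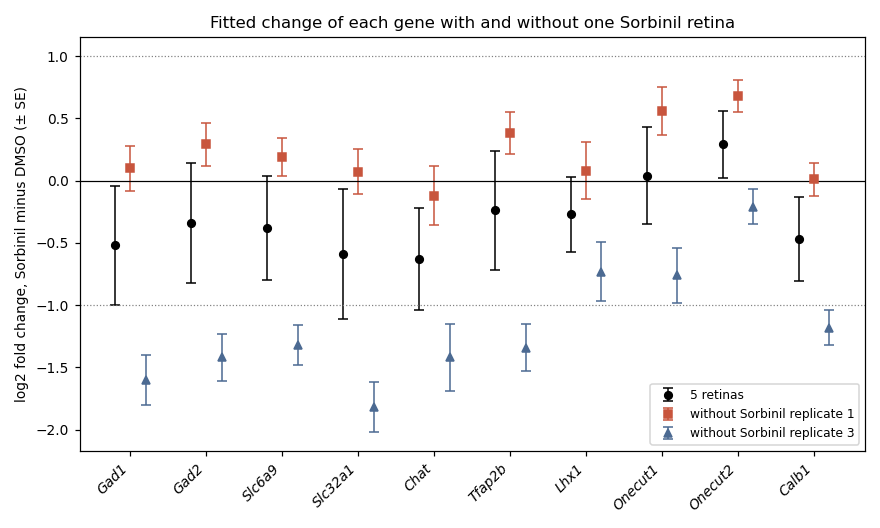
Fitted log2 fold change of each gene (Sorbinil minus DMSO, bars of 1 standard error) over all 5 retinas and without one Sorbinil retina, with dotted lines at a 2-fold change. Over 5 retinas all 10 genes lie between the dotted lines, and only without Sorbinil replicate 3 do 7 of them pass below.

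The proportions among the members were also compared between retinas. Slc6a9 held 29.3% to 31.7% of the counts of the 10 genes, and Gad2 held 4.96% to 5.72%. Slc32a1 had a share of 12.6% to 13.2% with DMSO, and of 9.64% and 11.9% in Sorbinil replicates 1 and 3. Onecut2 went the other way, with 1.20% to 1.42% under DMSO against 2.95% and 1.81% in Sorbinil replicates 1 and 3. As a ratio of counts, the 4 horizontal genes came to 10.4%, 10.6% and 12.6% of the 6 amacrine genes under DMSO, against 16% and 10.9% in Sorbinil replicates 1 and 3. The ratio of Gad1 to Gad2 counts was 5.19, 4.71 and 5.14 with DMSO and 4.45 and 4.42 with Sorbinil. These shares are descriptions of single libraries and were not tested.

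Within the DMSO group, replicate 1 had the highest level of 10 of the 10 genes and replicate 3 the lowest level of 7, the 6 amacrine genes among them. Of all 14992 genes tested, DMSO replicate 1 was the highest DMSO retina for 5475 and DMSO replicate 3 the lowest for 5882. The summed level of the 6 amacrine genes was 928, 775 and 709 CPM in DMSO replicates 1, 2 and 3, and 290.2 and 909 CPM in Sorbinil replicates 1 and 3. For the 4 horizontal genes it was 96.9, 81.8 and 89.2 CPM with DMSO, and 46.5 and 99.3 CPM with Sorbinil. Both sums thus set Sorbinil replicate 1 below the other 4 retinas and left Sorbinil replicate 3 near DMSO replicate 1.

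Between genes, levels were compared per kilobase of annotated exon (CPM per kb, GENCODE vM39). In the DMSO retinas Slc6a9 was highest at 43.7 ± 4.95 CPM per kb (SD, n = 3). Slc32a1 at 22.9 ± 3.67, Gad1 at 22.8 ± 3.55 and Tfap2b at 19.9 ± 2.99 followed. Their ranges overlapped, but within each DMSO retina Tfap2b was below both Slc32a1 and Gad1. The order of Slc32a1 and Gad1 varied between the retinas. Calb1 at 8.95 ± 0.779 and Gad2 at 7.25 ± 1.07 came next. The ranges of the 2 genes overlapped (8.07 to 9.56 and 6.07 to 8.17), but Calb1 was above Gad2 within each DMSO retina. The lowest were Lhx1 at 1.88 ± 0.353, Chat at 1.27 ± 0.247, Onecut1 at 1.05 ± 0.137 and Onecut2 at 0.71 ± 0.0406 CPM per kb. The ranges of Chat and Onecut1 overlapped, but Chat was above Onecut1 within each DMSO retina. The exon length counts all annotated isoforms, so a gene with long alternative ends, such as Onecut2 with 16234 bases, appears lower on this scale.

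Since 2 of the marker families are transcription factors with known recognition letters, the 250 bases before each RefSeq start (GRCm38.p6 table, a different build from the gene positions above) were searched on both strands. The table held promoters for 8 of the 10 genes, with 10 starts in all. The AP-2 letters GCCNNNGGC were found before Gad2 only, and occur in 13.7% of all 32851 starts of the table. The Onecut letters ATTGAT were found before the first of the Slc6a9 starts only, where they read from the opposite strand, and occur in 6.72% of all starts. The searched stretches of Gad2 (chr2:22622077-22622326, plus strand) and Slc6a9 (chr4:117835008-117835257, plus strand) are shown for their matches, in capitals, and that of Slc32a1 (chr2:158610508-158610757, plus strand), which dropped most in Sorbinil replicate 1, for comparison. It holds neither motif.
Gad2: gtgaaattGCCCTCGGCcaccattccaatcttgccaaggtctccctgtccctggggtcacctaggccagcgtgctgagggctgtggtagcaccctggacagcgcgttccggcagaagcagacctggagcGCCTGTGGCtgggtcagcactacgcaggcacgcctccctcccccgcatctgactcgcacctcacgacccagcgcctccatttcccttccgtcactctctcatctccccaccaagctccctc
Slc6a9: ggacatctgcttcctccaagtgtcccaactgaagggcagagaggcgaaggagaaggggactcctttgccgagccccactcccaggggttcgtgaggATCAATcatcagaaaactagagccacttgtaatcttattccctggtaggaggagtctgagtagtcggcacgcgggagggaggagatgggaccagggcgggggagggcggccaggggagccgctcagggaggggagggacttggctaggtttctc
Slc32a1: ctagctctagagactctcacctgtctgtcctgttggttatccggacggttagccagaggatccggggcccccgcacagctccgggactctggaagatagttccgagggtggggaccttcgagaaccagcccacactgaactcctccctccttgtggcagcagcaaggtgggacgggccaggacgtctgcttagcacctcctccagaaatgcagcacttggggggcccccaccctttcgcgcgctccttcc
A match of letters is not evidence of binding, and no match says only that these letters are not in this window.

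A further 37 genes known from amacrine cells and 14 from horizontal cells were read from the same fit. Of the 36 amacrine genes tested, 0 were called in either direction. Their median log2 fold change was -0.47, with 34 below 0, compared to 51% of all genes tested. Without Sorbinil replicate 1 it was 0.02, with 14 below 0 and 0 called. Sorbinil replicate 1 lay below every DMSO retina for 33 of the 36, compared to 41.7% of all genes tested. It was at least 2-fold below the DMSO mean for 28, compared to 17.4% of all genes tested. For the 6 amacrine members it was 6 of 6, and for the 4 horizontal members 1 of 4. Snap25 and Nrxn2 were among the list's genes of highest level. Snap25, a synaptic protein of most retinal neurons and photoreceptors, measured 779, 808 and 779 CPM with DMSO and 749 and 835 CPM with Sorbinil, a log2 fold change of 0.01 with a standard error of 0.15. It showed no drop in Sorbinil replicate 1 of the size seen in the members. Nrxn2, a presynaptic adhesion protein, measured 290.0, 243 and 209.8 CPM with DMSO and 81.7 and 280.3 CPM with Sorbinil. Nrxn2 thus had the order of retinas seen for Gad1.

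Of the 12 other horizontal genes tested, 0 were called. All 12 had a fitted log2 fold change below 0, compared to 51% of all genes tested, with a median of -0.30. Without Sorbinil replicate 1 the median was 0.12, with 4 below 0 and 0 called. Prox1, a homeodomain factor also found in bipolar and AII amacrine cells, measured 332, 296 and 254 CPM with DMSO and 172 and 386 CPM with Sorbinil. Septin4 measured 132, 106 and 124 CPM with DMSO and 82.7 and 113 CPM with Sorbinil. Megf10, which takes part in the spacing of horizontal cells, measured 55.6, 48.5 and 46.9 CPM with DMSO and 27.3 and 67.2 CPM with Sorbinil. In all 3 genes Sorbinil replicate 1 was the lowest retina, and for Prox1 and Megf10 Sorbinil replicate 3 was the highest.

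In the pathway of inhibitory transmitters, which includes 4 of the members, 0 of 21 genes were called, and the median log2 fold change was -0.23, or 0.10 without Sorbinil replicate 1, again with 0 called. Glul, the glutamine synthetase of Müller glia, measured 3629, 3333 and 3352 CPM with DMSO and 1195 and 3458 CPM with Sorbinil. Of 13 genes for acetylcholine handling and starburst cells, which include Chat, 0 were called. In edgeR's quasi-likelihood test 1 had an unadjusted p-value under 0.05, compared to 5.01% of all genes tested. That gene, Chrna7, which encodes a nicotinic receptor subunit, was named after its values were seen, and measured 6.38, 6.86 and 6.52 CPM with DMSO and 8.98 and 8.72 CPM with Sorbinil. Both Sorbinil retinas were above every DMSO retina, a pattern seen in 12.8% of all genes tested. The fit gave 0.43 ± 0.15 log2 units (SE), unadjusted p-value 0.0345 and adjusted p-value 0.758 in edgeR. Slc18a3, the vesicular acetylcholine transporter, which lies inside the Chat gene, was also chosen after its values were seen. It measured 18.6, 17.7 and 14.2 CPM with DMSO and 4.17 and 16.8 CPM with Sorbinil, the same order of the 5 retinas as for Chat. Ache, Chrnb2 and Isl1, the list's genes of highest level, had log2 fold changes of -0.41, -0.41 and -0.57 and were not called. Without Sorbinil replicate 1 these were -0.09, 0.09 and -0.11, Chrna7 stood at 0.42, and the list's median was 0.08 with 0 called. For Ache, which breaks down acetylcholine, both Sorbinil retinas (32.1 and 52.7 CPM) were below all DMSO retinas (53.0 to 62.5 CPM). This was seen in 10.5% of all genes tested, and Sorbinil replicate 3 was close to the lowest DMSO retina.

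Markers of other retinal cells moved with the amacrine and horizontal genes in Sorbinil replicate 1. In that retina the median log2 difference from the DMSO mean was -1.40 for the 6 amacrine and -0.73 for the 4 horizontal genes, beside 0.02 for all genes tested. It was -1.08 for 18 bipolar cell genes, -1.21 for 16 ganglion cell genes, -1.45 for 15 Müller glia genes, -0.93 for 14 microglia genes, -0.85 for 12 pigment epithelium genes, -1.57 for 10 pericyte genes and -2.17 for 14 endothelial genes. The pigment epithelium median was -0.40, -0.50 and 0.91 in DMSO replicates 1, 2 and 3. DMSO replicate 3 thus raised the DMSO mean of that list, and Sorbinil replicate 1 lay nearer to DMSO replicates 1 and 2. In the fit over 5 retinas, 9 endothelial genes (Cdh5, Cldn5, Tek, Tie1, Emcn, Vwf, Ly6c1, Slco1a4 and Sox17) and 3 pericyte genes (Acta2, Tagln and Des) were called lower. No gene of the neuron, glia or pigment epithelium lists was called. Over all genes tested, 1.35% were called lower and 0.36% higher, so lists of this length would seldom hold a called gene. Without Sorbinil replicate 1 the median log2 fold change was -0.86 for the endothelial, -0.26 for the pericyte and -0.18 for the ganglion cell genes. Over all genes tested it was then -0.01. In Sorbinil replicate 1 itself the rod and cone lists went the other way, with median log2 differences from the DMSO mean of 0.57 and 0.45. All 15 rod genes were measured, none at 0, and their summed level was 95913 to 114520 CPM under DMSO, and 159391 and 82653 CPM in Sorbinil replicates 1 and 3. Mitochondrially encoded genes took 3.70% and 4.05% of the counts in Sorbinil replicates 1 and 3, and 1.94% to 2.66% under DMSO. The list medians for Sorbinil replicate 3 were 0.15 for the amacrine, 0.32 for the horizontal, -0.02 for the bipolar, -0.18 for the ganglion cell, 0.01 for the Müller glia, -0.12 for the microglia, 0.18 for the pigment epithelium, -0.25 for the pericyte, -0.82 for the endothelial, -0.22 for the cone and -0.31 for the rod genes. The endothelial list was thus low in both Sorbinil retinas. The part of tissue composition, RNA quality or dissection in the low values of Sorbinil replicate 1 was not tested. In whole retinas, fewer cells of a type and less RNA per cell cannot be told apart.

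**Figure D4:**
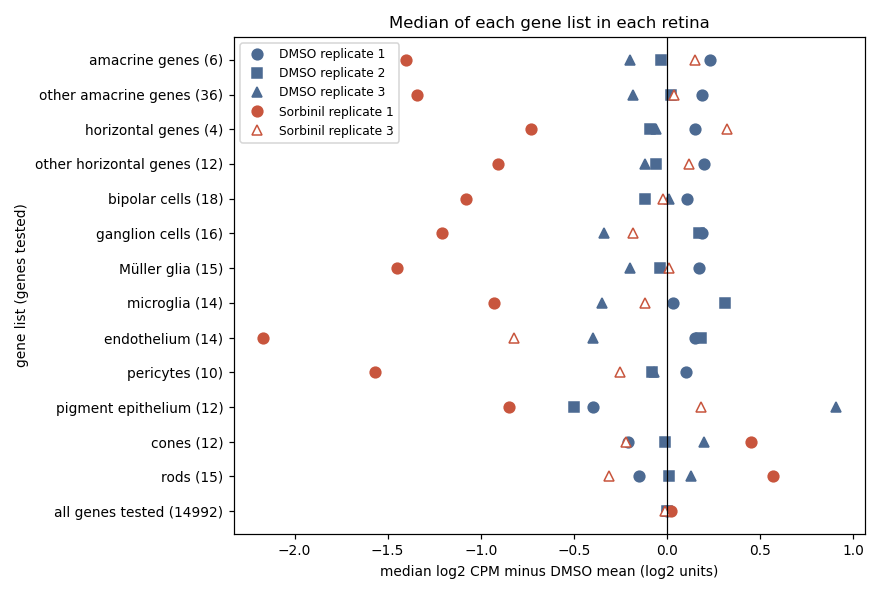
Median over each gene list of log2 CPM minus the DMSO mean (log2 units), with one point per retina and the number of genes tested in brackets. Sorbinil replicate 1 is low for the lists of neurons, glia and vessels, from -0.73 for the horizontal to -2.17 for the endothelial genes, and high for rods (0.57) and cones (0.45).

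The genes outside all lists whose profile over the 5 retinas was nearest to the median of the amacrine genes were Ppp1r16b, Bhlhe22 and Ddah1. Their log2 CPM, centred on the DMSO mean, had a root mean square distance of 0.019, 0.02 and 0.023 from that median, over 14785 candidate genes. Bhlhe22, a transcription factor known from amacrine and bipolar cells, measured 32.1, 26.7 and 23.6 CPM with DMSO and 10.5 and 29.5 CPM with Sorbinil. Nearest to the median of the horizontal genes were Cacnb4, Tjp3 and Neto1, at 0.034, 0.034 and 0.037. Cacnb4, a calcium channel subunit, measured 27.5, 23.8 and 23.2 CPM with DMSO and 14.4 and 31.2 CPM with Sorbinil. Such likeness over 5 retinas rests mostly on Sorbinil replicate 1 and is a description only.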

How the data were processed

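Whole-gene RNA counts of 5 crushed mouse retinas (3 DMSO, 2 Sorbinil) were used. The authors trimmed the reads, aligned them to GRCm39 in CLC Genomics Workbench with default settings, and deposited total counts per gene without normalization. The annotation release, the handling of reads shared by genes and the strand setting are not given in the sources used here. The labels name a reverse stranded library kit. The authors left out 1 Sorbinil replicate after PCA, and it was not analysed here. Columns were matched to samples by name.

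Analysis used edgeR 4.0.16 under R 4.3.3. Genes were filtered with filterByExpr (minimum count 10), scaled by TMM and tested across all 14992 genes by the quasi-likelihood functions glmQLFit and glmQLFTest, p-values being adjusted after Benjamini and Hochberg. A standard error is the size of the log2 fold change divided by the square root of F. Differences of single retinas used log2 CPM with a prior count of 2. The labels do not tie retinas to litters or days, so p-values measure the spread between these samples, part of which may be technical. Totals ran from 56096541 to 90288552 counts.

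The genes and lists were chosen with earlier results of these data known. Of the other lists, the 3 genes of highest mean CPM and any called gene were named, except for some that are not reported here. Called genes of the vessel lists are given by name only. GENCODE vM39 supplied positions, exon lengths and GC content (23524 of 25655 symbols matched), and RefSeq the promoters. The fit was tested on simulated data in which no single retina was shifted. That test does not cover a retina such as Sorbinil replicate 1. Alternatives covered filters, scalings, DESeq2 1.42.0, the replicate block, thresholds, length and GC offsets, and leaving out each retina.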

Additional observations from a re-analysis of the deposited data

How the results depend on the processing

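None of the 10 genes was called under any filter, scaling, test, threshold on p with a 2-fold limit, replicate block or left-out DMSO retina, nor without Sorbinil replicate 1. When each retina was left out in turn, 0 to 7 members were called, with 7 without Sorbinil replicate 3. All genes called numbered 257 (203 lower, 54 higher). They became 408 with no filter (115 higher) and 148 with at least 10 counts in every retina (119 lower, 29 higher). With library size only 33 were higher, and with length and GC offsets 161 were lower and 149 higher. With the limit on the unadjusted p-value at 0.05 in place of 0.1 the number was 168 (129 lower). With an adjusted p-value under 0.05 there were 0 (0 lower, 0 higher) by edgeR's quasi-likelihood test, 14 by its likelihood ratio test and 21 by the DESeq2 Wald test. At an unadjusted p-value under 0.05 these 3 tests gave 751, 758 and 955 genes, in that order. With the limit on the unadjusted p-value at 0.1 and no limit on the fold, the quasi-likelihood test gave 1696 (649 lower, 1047 higher). Leaving out one retina gave 170 to 2859 genes, with 128 to 2628 lower and 36 to 231 higher, the fewest in all without DMSO replicate 1 and the most without Sorbinil replicate 3. Library size only and the length and GC offsets moved the median over all genes to -0.11 and 0.164 log2 units. Relative to that median the amacrine genes were at -0.37 and -0.53, beside -0.44 with TMM. The cause of these changes was not tested.

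Leaving out each retina in turn gave log2 fold changes of -1.60 to 0.10 for Gad1, -1.42 to 0.29 for Gad2, -1.32 to 0.19 for Slc6a9, -1.82 to 0.072 for Slc32a1, -1.42 to -0.12 for Chat, -1.34 to 0.38 for Tfap2b, -0.73 to 0.079 for Lhx1, -0.76 to 0.56 for Onecut1, -0.21 to 0.68 for Onecut2 and -1.18 to 0.0094 for Calb1, the lowest without Sorbinil replicate 3 and the highest without Sorbinil replicate 1 in each case. The sign for Onecut1 also turned with library size only (-0.0005), with the replicate block (-0.16), and without DMSO replicate 2 (-0.02) or 3 (-0.004). The labels do not say what retinas of the same replicate number share. Correlations of same-numbered deviations were -0.24 and -0.12. With 2 Sorbinil retinas the deviations mirror each other, so these values cannot decide whether retinas were paired. On the second principal component (18.4% of the variance) DMSO replicate 3 (-25.3) and Sorbinil replicate 3 (-22.4) lay together, and the others between 4.86 and 22.3. The replicate block gave 203 called genes and 0 called members. Under it Slc32a1 was at -0.90 (unadjusted p-value 0.0356, adjusted 1, in edgeR), with medians of -0.67 for the amacrine and -0.24 for the horizontal genes. A pseudocount of 0.5 in place of 0.01 changed no permutation p-value. The 4 genes with the fewest counts (Chat, Lhx1, Onecut1 and Onecut2) had standard errors of 0.27 to 0.41, and the other 6 of 0.34 to 0.52.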
